A study of Mus musculus with 18 samples.

Results

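SSBP1 knockdown in heat-shocked mouse fibroblasts was described across all genes by setting the 3 arrays titled MEF+mSSBP1-KD-HS (SSBP1-KD HS) against the 3 arrays titled MEF+scr-HS (SCR HS). These were 6 of the 18 arrays of the series, and the arrays were chosen by their titles alone. All cells were immortalized mouse embryonic fibroblasts (MEF cells) of the ICR background. An adenovirus had brought either short hairpin RNA against mouse SSBP1 or scrambled RNA into them; virus contact lasted 2 h and was followed by 70 h in normal medium. Both groups then spent 1 h at 42 °C, so that infection and heat were shared by the groups compared. The virus itself was not shared, since the paper names a separate adenovirus for each RNA. Effects of the virus preparation or of the hairpin sequence therefore cannot be told apart from those of SSBP1 knockdown. The groups drawn on beside them were SCR Cont and SSBP1-KD Cont, the same infections without heat shock at 37 °C, and HSF1-KD HS, infected with short hairpin RNA against HSF1 and heat shocked in the same way, with 3 arrays each. The labels leave it unsaid whether a group's 3 arrays are separate cultures, and p-values therefore cover the array-to-array spread alone, which may be technical.

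Heat shock factor 1 (HSF1) is the transcription factor that binds heat shock elements, arrays of inverted GAA units, upstream of heat shock protein genes and drives their transcription during heat shock. The heat shock proteins (HSPs) are mostly chaperones, which keep other proteins folded, and they are grouped by size into HSP110, HSP90, HSP70, HSP60, HSP40 and small HSPs. SSBP1 is a single-stranded DNA-binding protein of mitochondria, where it coats the mitochondrial genome during its replication. The study asked whether SSBP1 also takes part in the HSF1-driven response in the nucleus, and the arrays compared here show what heat-shocked cells expressed when SSBP1 was reduced.

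Values are log2 signals, and a log2 difference below 0 means less transcript in SSBP1-KD HS. A gene is said to be lower or higher, or to have fallen or risen, where limma gave an adjusted p under 0.05 over all probe sets. Ssbp1, the gene targeted by the short hairpin RNA, read 9.07, 9.09 and 9.03 on the 3 SCR HS arrays and 8.71, 8.57 and 8.68 on the 3 SSBP1-KD HS arrays. The groups did not overlap, and the transcript was 1.33-fold lower (log2 difference -0.41, standard error 0.08, adjusted p = 0.00155). A less bright probe set of Ssbp1 differed by -0.03 (adjusted p = 0.826). Without heat shock the brighter probe set differed by -0.22 between SSBP1-KD Cont and SCR Cont, which did not pass (adjusted p = 0.0555). The difference between HS and Cont did not pass either (-0.19, adjusted p = 0.667). In HSF1-KD HS the brighter probe set read 9.32, 9.35 and 9.13, above every SSBP1-KD HS array. The array medians of the whole series ran from 7.88 to 7.94, and the 6 arrays compared had mean absolute residuals of 0.0709 to 0.0851. Of the arrays drawn on beside them, replicate 1 of SSBP1-KD Cont had the largest mean absolute residual, 0.152.

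Of 19936 measured genes, 2864 (14.4%) were lower in SSBP1-KD HS and 2855 (14.3%) were higher, with a median log2 difference of 0.03 over all genes. Most of these differences were small. At least 1.5-fold lower were 426 genes (2.14%) and at least 1.5-fold higher were 204 (1.02%), and for each of these genes the 3 arrays of one group lay entirely above those of the other. The 20 largest falls included genes of secreted factors, receptors and matrix proteins, and the 20 largest rises genes of the cornified envelope, a collagenase, protease inhibitors and smooth muscle actin.

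Gpm6a, a membrane glycoprotein best known from neurons, had the largest fall. It read 10.39, 10.92 and 10.90 in SCR HS and 7.90, 7.91 and 8.07 in SSBP1-KD HS, 6.83-fold lower (standard error 0.13 on the log2 scale, adjusted p = 3.96e-08). Stk26, a protein kinase, read 8.65, 9.30 and 9.26 and 6.67, 6.47 and 6.49, 5.76-fold lower (adjusted p = 2.29e-07). Igf2, an insulin-like growth factor, stood at 10.84, 11.31 and 11.22 against 9.05, 9.29 and 9.23, 3.82-fold lower (adjusted p = 1.11e-07), and Igfbp2, which binds such factors, was 3.63-fold lower. The secreted WNT inhibitors Sfrp1 and Sfrp2 were 3.40-fold and 3.54-fold lower, the complement protease genes C1s1 and C1s2 4.31-fold and 3.35-fold lower, and the matrix proteoglycan genes Fmod and Ogn 4.30-fold and 3.14-fold lower. The receptor genes Adcyap1r1 and Plxna4 were 4.49-fold and 3.81-fold lower, as was Cd200, an immune-regulating surface protein, by 3.94-fold. Saa3, an acute-phase protein, Abi3bp, a matrix protein, Lrrn4, the growth factor gene Ptn, the oxysterol hydroxylase gene Cyp39a1, the laminin receptor gene Bcam and Clu, an extracellular chaperone, made up the rest of the 20 largest falls, with log2 differences from -1.73 to -1.63. SCR HS replicate 1 was the lowest of its group in 19 of these 20 genes. Without that array the difference was larger in 19 of the 20, all but Ogn, with Gpm6a at -2.95 and Stk26 at -2.74.

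Among the largest rises, the cornified envelope gene Lce1g read 5.89, 5.69 and 5.34 in SCR HS and 8.01, 7.61 and 7.42 in SSBP1-KD HS, 4.11-fold higher (standard error 0.21 on the log2 scale, adjusted p = 6.76e-06), and its neighbour in sequence and function Lce1h was 3.85-fold higher. Tnfrsf23, a decoy receptor for a death ligand, read 9.54, 9.05 and 9.16 and 11.11, 11.001 and 10.99, 3.45-fold higher (adjusted p = 6.42e-08). Mmp13, a collagenase, read 8.91, 8.67 and 8.73 and 10.34, 10.25 and 10.29, 2.88-fold higher (adjusted p = 1.37e-07). In each of these genes the groups were far apart compared with the spread between arrays. Serpinb2, an inhibitor of plasminogen activators, was 2.89-fold higher, the transmembrane glycoprotein gene Gpnmb 3.07-fold, the smooth muscle actin gene Actg2 2.51-fold, Fosl1, a partner of JUN in the AP-1 factor, 2.40-fold, the sphingomyelin synthase gene Sgms2 2.33-fold and Fxyd5, a regulator of the sodium pump, 2.36-fold higher. The remaining ones, Usp17la, P2ry10b, Ang2, H2bc4, Tigit, Serpinb9b, Dynap, Tmprss11f and Asb5 with the antisense gene Map2k3os, had log2 differences from 1.16 to 1.81. Several of these (Lce1g, Lce1h, Usp17la, Ang2, H2bc4, Serpinb9b) belong to families with near-identical copies, so their probes may also read relatives. In 17 of the 20 genes SCR HS replicate 1 was the highest of its group, and in 18 SSBP1-KD HS replicate 1 was.

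**Figure D1:**
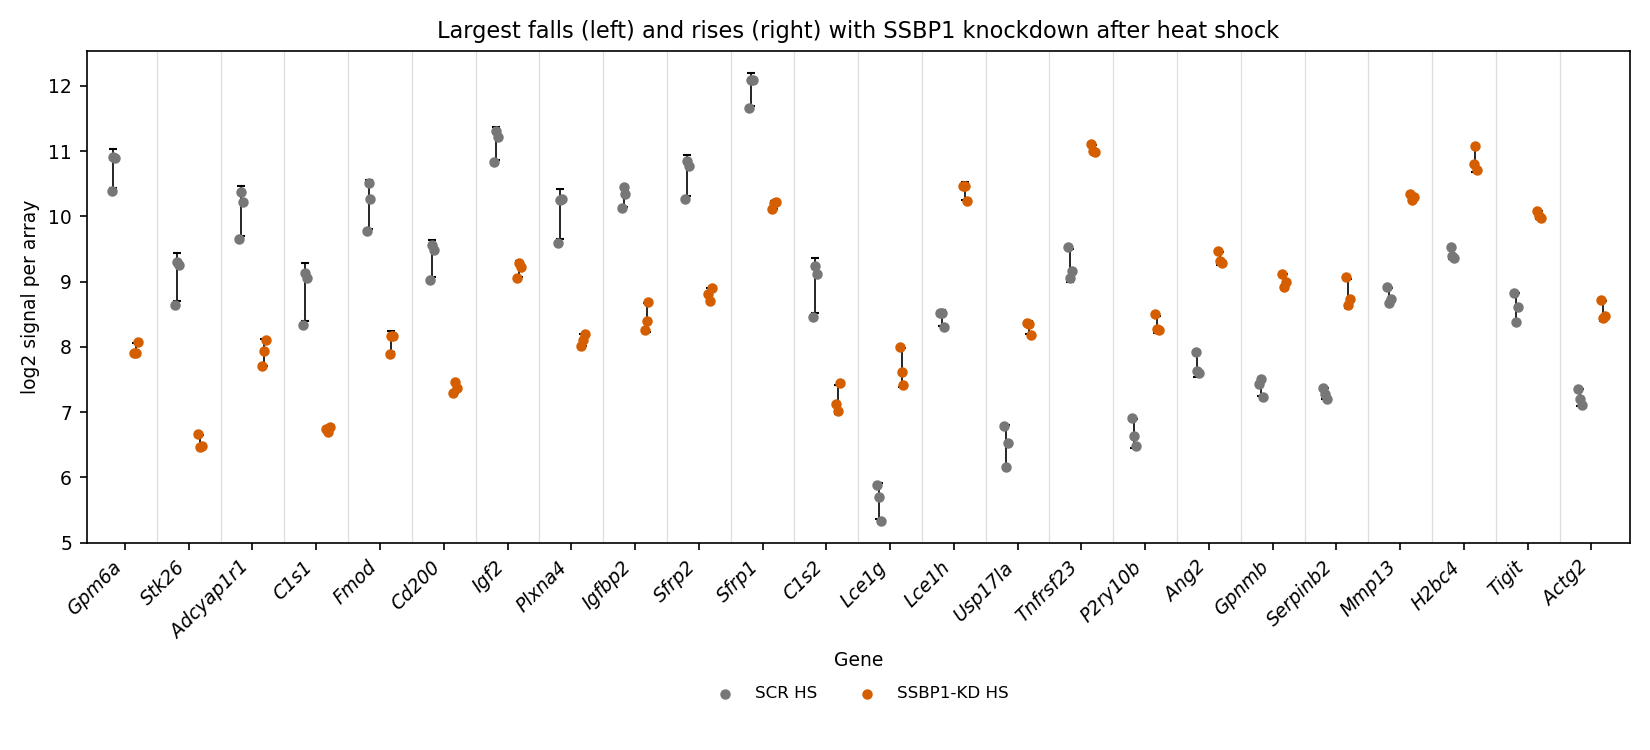
Log2 signal per array (vertical axis) of the 12 largest falls (left) and the 12 largest rises (right) in SCR HS (grey) and SSBP1-KD HS (orange); points are arrays and black bars the mean with its SD (n = 3). Genes were chosen among those in which the 2 groups do not overlap, and Gpm6a reads 10.39 to 10.92 in SCR HS and 7.90 to 8.07 in SSBP1-KD HS.

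Whether these differences were particular to heat-shocked cells was read from the cells without heat shock, since SSBP1-KD Cont and SCR Cont share no array with the comparison. There, 3288 genes (16.5%) were lower and 2919 (14.6%) higher in SSBP1-KD. Of the genes lower after heat shock 2341 were also lower in Cont, 81.7% of the first and 71.2% of the second, and 1944 were higher in both, 68.1% and 66.6%. Of the genes at least 1.5-fold lower or higher after heat shock, 405 of 426 and 194 of 204 were called the same way in Cont. The 20 largest falls and the 20 largest rises were all among them, with Gpm6a at -2.76 in Cont, Igf2 at -1.91 and Lce1g at 2.12. Over genes, which are not independent replicates, the differences with and without heat shock had a Pearson correlation of 0.831 and a Spearman correlation of 0.701.

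Few genes had a knockdown difference that itself differed between the heat-shocked and the control cells. The test of that difference called 62 genes (0.311%) with a lower value in HS than in Cont and 36 (0.181%) with a higher one. Of the 62, 20 were lower in HS and higher in Cont, 18 were called only as lower in HS, 21 were called only as higher in Cont, and the others were called the same way in both. Of the 426 genes at least 1.5-fold lower in HS, 16 had a lower difference in HS than in Cont, and of the 204 at least 1.5-fold higher, 6 had a higher one. Single arrays moved these counts, and with 1 array left out the first was 33 to 83 and the second 10 to 38. Without SSBP1-KD Cont replicate 1, the array with the largest residuals, they were 72 and 29. The first moved by over 1.5 times without replicate 2 or 3 of SCR HS (35 and 33), replicate 1, 2 or 3 of SSBP1-KD HS (40, 37 and 36), replicate 3 of SCR Cont (37) or replicate 2 of SSBP1-KD Cont (36). The second did so without the same HS arrays (10, 10, 11, 20 and 12), replicate 1, 2 or 3 of SCR Cont (17, 14 and 15) or replicate 2 or 3 of SSBP1-KD Cont (17 each). The genes given with values in what follows and called as differing between HS and Cont passed this test with any 1 of these arrays left out, except Ahsa1. Myc, Csrnp1 and Sgk1, which are named below without values, were not checked singly in this way.

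**Figure D2:**
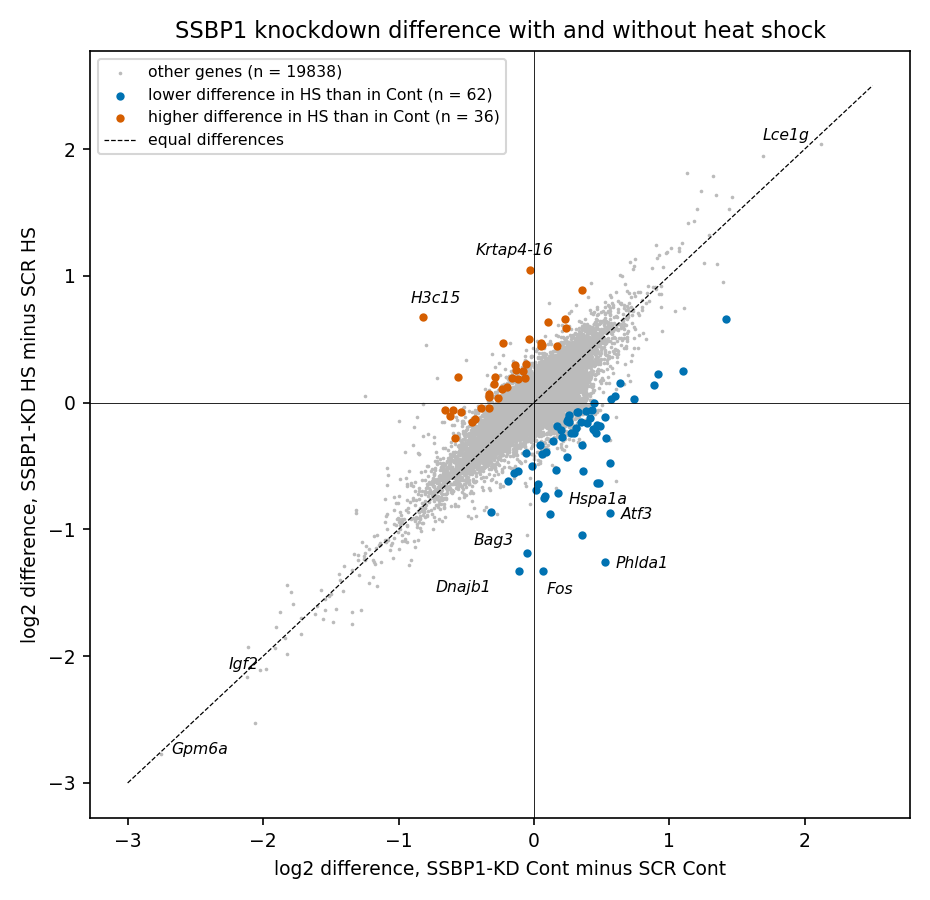
Log2 difference of SSBP1-KD from SCR in heat-shocked cells (vertical axis) against that in cells without heat shock (horizontal axis), 1 point per gene; blue and orange points are the 62 and 36 genes whose difference was lower or higher in HS than in Cont, and the dashed line marks equal differences. Most large differences lie along the line, as Gpm6a (-2.77 and -2.76) does, whereas Dnajb1 (-1.33 and -0.11) and Phlda1 (-1.25 and 0.52) lie below it.

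The genes with a heat-dependent knockdown difference included a set of chaperones. The 6 lists of chaperones and their partners held 100 measured genes, of which 21 were lower and 26 higher in SSBP1-KD HS, with a median log2 difference of 0.05. Over all genes 14.4% were lower and 14.3% higher. A lower difference in HS than in Cont was found in 14 of the 100 and a higher one in none, and the first count was 13 to 17 over all alternatives. Of these 14 genes, 13 were lower in SSBP1-KD HS and 9 were higher in SSBP1-KD Cont. The other 86 had a median difference of 0.09 in HS and 0.10 in Cont, with 8 lower and 26 higher after heat shock.

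Dnajb1, the HSP40 co-chaperone that activates HSP70, had the largest fall of any gene in the 6 chaperone lists. It read 12.67, 12.85 and 12.91 in SCR HS and 11.41, 11.55 and 11.49 in SSBP1-KD HS, 2.51-fold lower (standard error 0.07 on the log2 scale, adjusted p = 5.59e-08). Without heat shock the arrays lay close together, at 9.88, 9.85 and 9.83 in SCR Cont and 9.67, 9.74 and 9.82 in SSBP1-KD Cont. Bag3, which couples HSP70 to small HSPs and autophagy, read 11.75, 11.89 and 11.95 in SCR HS and 10.66, 10.69 and 10.66 in SSBP1-KD HS, 2.28-fold lower (adjusted p = 5.9e-08), against 9.95, 9.96 and 9.93 and 9.83, 9.87 and 9.99 in Cont. In Cont neither gene passed, with a difference of -0.11 for Dnajb1 (adjusted p = 0.281) and -0.05 for Bag3 (adjusted p = 0.621), and the difference between HS and Cont passed for both (adjusted p = 4.85e-05 and 4.21e-05). For Hspb1, a small HSP, the signals were 13.76, 13.90 and 14.002 in SCR HS and 13.10, 13.17 and 13.12 in SSBP1-KD HS, 1.69-fold lower (adjusted p = 2e-06). The inducible HSP70 gene Hspa1a read 12.79, 12.85 and 12.90 and 12.11, 12.08 and 12.20, 1.64-fold lower (adjusted p = 2.75e-06). Hspa1b, a near-identical copy of Hspa1a, was not measured by a probe set of its own, and probes of Hspa1a may read it as well.

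A second set of 8 chaperone genes was lower in SSBP1-KD after heat shock and higher in SSBP1-KD without it. Hsph1, an HSP110 that exchanges the nucleotide of HSP70, read 12.83, 12.90 and 12.95 in SCR HS and 12.24, 12.28 and 12.25 in SSBP1-KD HS (log2 difference -0.64, adjusted p = 2.12e-05), and it was higher in SSBP1-KD Cont (log2 difference 0.48, adjusted p = 0.000229). The HSP40 gene Dnajb4 differed by -0.63 in HS and 0.47 in Cont, Dnaja4 by -0.54 and 0.36, and Dnaja1 by -0.43 and 0.24 (adjusted p in HS 5.68e-06, 3.6e-05 and 8.69e-05). The other probe set of Dnaja1 differed by -1.09 in HS. Hspb8, the small HSP that works with BAG3, differed by -0.28 and 0.53, the HSP110-related gene Hspa4l by -0.24 and 0.46, and Hsp90aa1, the inducible HSP90, by -0.24 and 0.28. The mitochondrial HSP60 gene Hspd1 completed the 8, with -0.18 in HS (adjusted p = 0.0142) and 0.49 in Cont (adjusted p = 5.59e-06). Its call in HS was lost when replicate 3 of SCR HS (adjusted p = 0.0503) or of SSBP1-KD HS (adjusted p = 0.0572) was left out. A less bright probe set of Hspd1 did not pass in HS (adjusted p = 0.111). HSP10, the partner of HSP60 encoded by Hspe1, differed by -0.18 in HS (95% confidence interval -0.34 to -0.02, adjusted p = 0.103) and 0.25 in Cont (adjusted p = 0.0214), with a difference between HS and Cont of -0.43 (adjusted p = 0.111). Hspe1 passed in HS with array weights (adjusted p = 0.0345, range over the alternatives 0.0345 to 0.253), and its other probe set differed by -0.16 in HS (adjusted p = 0.0542) with a passing difference between HS and Cont (adjusted p = 0.0322). The HSP90 co-chaperone gene Fkbp4 differed by -0.54 in HS (adjusted p = 8.15e-07) and -0.12 in Cont (adjusted p = 0.0588). Ahsa1, which activates HSP90, differed by -0.08 in HS (adjusted p = 0.33) and 0.32 in Cont (adjusted p = 0.000202). Its difference between HS and Cont (-0.40, adjusted p = 0.0202) no longer passed without replicate 2 or 3 of SCR HS, replicate 2 or 3 of SSBP1-KD HS, replicate 3 of SCR Cont or 2 of SSBP1-KD Cont (adjusted p = 0.0681, 0.0507, 0.0567, 0.0533, 0.0588 and 0.0582).

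**Figure D3:**
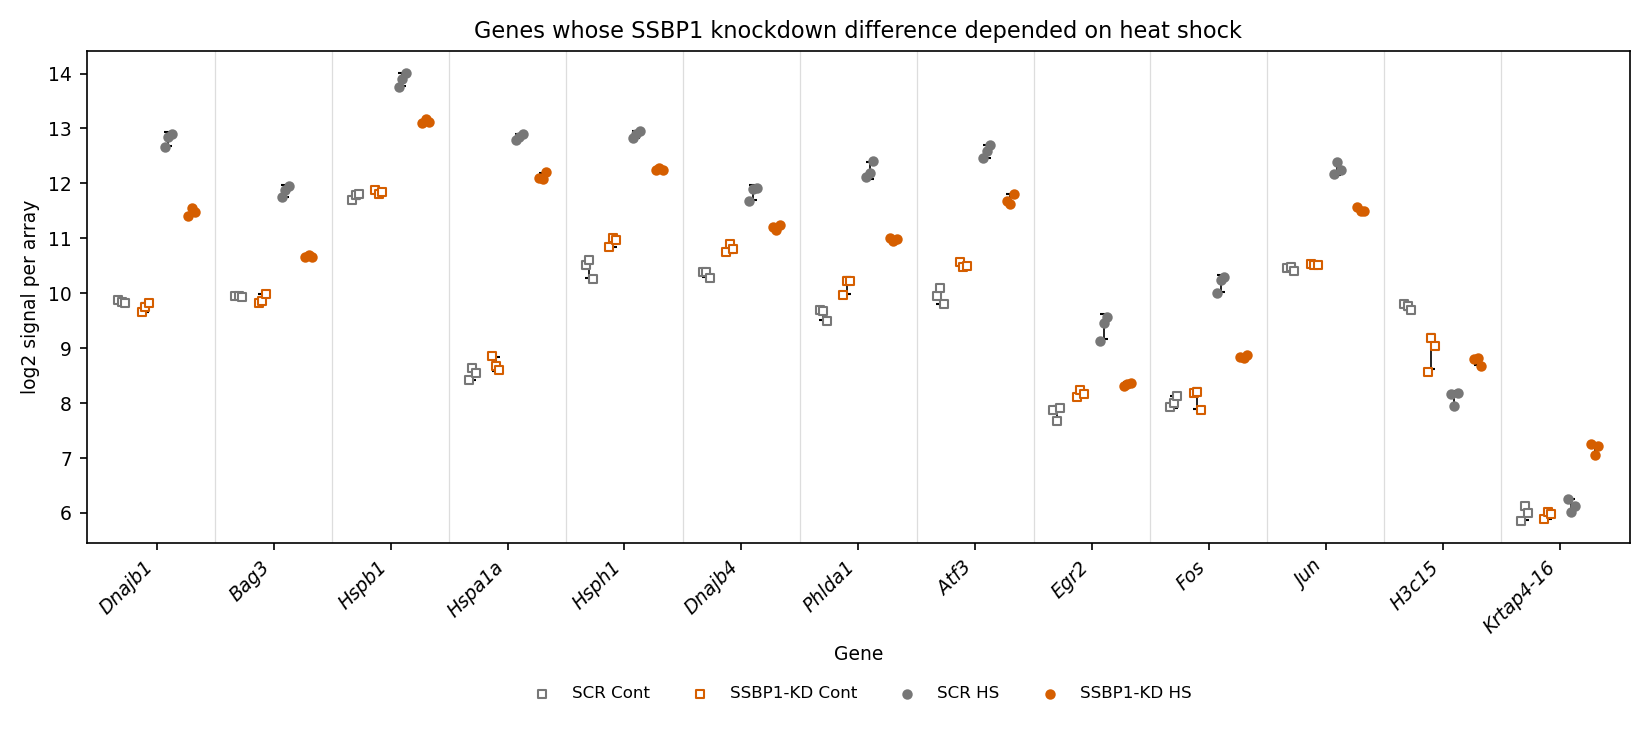
Log2 signal per array (vertical axis) of 13 genes in SCR Cont and SSBP1-KD Cont (open squares, grey and orange) and SCR HS and SSBP1-KD HS (filled circles, grey and orange); black bars are the mean with its SD (n = 3). For the chaperone genes Dnajb1 to Dnajb4 and the immediate-early genes Phlda1 to Jun the orange circles lie below the grey circles, while for H3c15 and Krtap4-16 they lie above.

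The other 86 members of these lists went the opposite way or did not pass in most cases, with 8 lower and 26 higher. The counts by list that follow cover all members and so include the 14 genes above. In the list of cytosolic HSP70 and HSP110 genes, 12 were measured, 4 were lower and 2 higher, and the share of rises (16.7%) was near that over all genes. The higher ones were Hspa4, an HSP110 family member (0.30), and Hspbp1, a nucleotide exchange factor of HSP70 (0.28). Among 23 HSP40 genes 7 were lower and 6 higher, the latter including Dnajc13 (0.44), which acts in endosome traffic, and among 14 small HSP and BAG genes 3 were lower and 4 higher, with Hspb6 at 0.45 and Bag1 at 0.39. Of 20 HSP90 and co-chaperone genes 4 were lower and 3 higher (5 without SSBP1-KD HS replicate 2), with Ptges3 (p23) at -0.25, the ubiquitin ligase gene Stub1 at -0.23 and Ttc4 at 0.38. With all arrays, the share of rises in this list too was near that over all genes. The TRiC chaperonin folds actin and tubulin and prefoldin delivers them to it. Of their 15 measured genes 8 were higher (2 to 10 over all alternatives), among them Pfdn4 (0.46), Cct3 (0.33) and Cct4 (0.25), and 1 was lower (0 without replicate 2 of SCR HS or of SSBP1-KD HS).

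The promoters of the 14 genes were read from RefSeq windows of assembly GRCm38.p6, which run from 250 bases before to 50 bases after each transcript start. A heat shock element of 3 units, with GAA and TTC in turn and any 2 bases (NN) between units, read from either strand, was present in 0.603% of all 32851 windows and in the windows of 2 of the 13 genes that had one, Hsph1 and Hspd1. A pair of units, GAA then NN then TTC or TTC then NN then GAA, each its own reverse complement, which is contained in the longer motif and was searched after its matches had been seen, was present in 15.1% of all windows. It was found for 10 of the 13 genes (76.9%) and for 14 of 70 other members of the chaperone lists, shares that describe these windows and were not tested. Dnajb1, Hspa4l and Ahsa1 had no pair in their windows, and Hspb8 and Bag3 had it only past the transcript start. Stretches before the start are shown, 5′ to 3′ on the strand of the gene, for the genes with a pair there, with every pair in capitals and up to 20 bases on either side.
Hspa1a, chr17:34972233-34972280 (minus strand): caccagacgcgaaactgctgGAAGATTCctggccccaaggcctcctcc
Hsph1, chr5:149636342-149636389 (minus strand): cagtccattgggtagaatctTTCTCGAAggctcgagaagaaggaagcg
Hspb1, chr5:135887782-135887849 (plus strand): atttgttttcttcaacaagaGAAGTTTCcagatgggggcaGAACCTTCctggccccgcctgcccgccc
Dnaja1, chr4:40722324-40722371 (plus strand): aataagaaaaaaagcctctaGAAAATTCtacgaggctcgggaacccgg
Dnaja4, chr9:54699449-54699534 (plus strand): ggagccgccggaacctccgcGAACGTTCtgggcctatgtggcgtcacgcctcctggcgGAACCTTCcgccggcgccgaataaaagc
Dnajb4, chr3:152193846-152193879 (minus strand): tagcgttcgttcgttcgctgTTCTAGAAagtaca
Fkbp4, chr6:128438780-128438827 (minus strand): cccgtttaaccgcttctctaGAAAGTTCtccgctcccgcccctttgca
Hspd1, chr1:55088039-55088096 (minus strand): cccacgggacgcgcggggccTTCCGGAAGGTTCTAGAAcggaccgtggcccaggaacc
The stretch of Hspd1 lies between Hspd1 and Hspe1, which are transcribed in opposite directions, and holds 3 overlapping pairs. It holds the 3-unit motif 2 times. The 3-unit match of Hsph1 begins 15 bases past the transcript start and is not in its stretch above, which holds a single pair. Hspb1 and Dnaja4 hold 2 pairs each. These letters alone do not show that HSF1 was bound there in these cells. Of the genes at least 1.5-fold lower and 1.5-fold higher as a whole, 13.3% of 294 and 17.0% of 159 with a window held a pair, close to the share over all windows. Of the 62 genes with a lower difference in HS than in Cont, which include these 14, 46 had a window. A pair was held by 37.0% of those 46, a share that was not tested.

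HSF1 knockdown in heat-shocked cells can be set beside these values, with the SCR HS arrays shared by both comparisons. Its own target could not be checked, since no probe set names Hsf1 alone. Hspa1a differed from SCR HS by -3.71 in HSF1-KD HS and by -0.72 in SSBP1-KD HS. Dnajb1 differed by -3.14 and -1.33, Hspb1 by -2.51 and -0.75, Hsph1 by -2.33 and -0.64, and Bag3 by -1.80 and -1.19. For all 14 chaperone genes SSBP1-KD HS lay above HSF1-KD HS, by 0.34 to 2.99 on the log2 scale, and each of these differences between the knockdowns passed the test. The smallest gaps were those of Hspa4l (0.34, adjusted p = 0.000434), Fkbp4 (0.37, adjusted p = 1.94e-05), Ahsa1 (0.45, adjusted p = 1.2e-05) and Hsp90aa1 (0.45, adjusted p = 1.61e-06). The immediate-early gene Fos, a subunit of AP-1, read 10.00, 10.24 and 10.29 in SCR HS, 9.13, 9.39 and 9.12 in HSF1-KD HS and 8.85, 8.82 and 8.88 in SSBP1-KD HS, and lay lower in SSBP1-KD HS than in HSF1-KD HS (log2 difference -0.36, adjusted p = 0.0165). For the immediate-early genes Egr2 (-0.09, adjusted p = 0.597) and Jun (-0.09, adjusted p = 0.256) the knockdowns did not differ beyond the threshold. Phlda1 and Atf3 differed from SCR HS by -2.23 and -1.30 in HSF1-KD HS and by -1.25 and -0.87 in SSBP1-KD HS, which lay above HSF1-KD HS for both (log2 difference 0.97 and 0.43, adjusted p = 1.77e-06 and 0.00124).

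**Figure D4:**
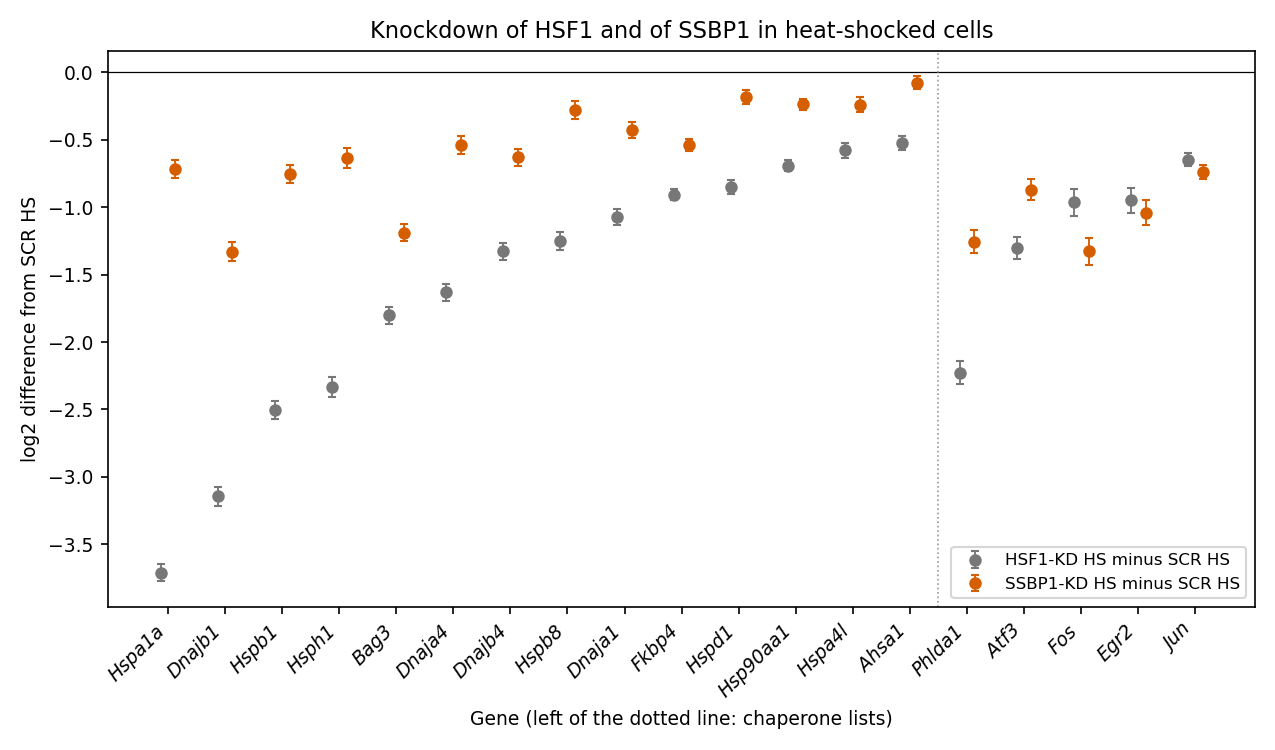
Log2 difference from SCR HS (vertical axis) in HSF1-KD HS (grey) and SSBP1-KD HS (orange) for the 14 chaperone genes with a heat-dependent knockdown difference and 5 immediate-early genes; bars are standard errors and both sets of differences use the same 3 SCR HS arrays. Every chaperone gene lies lower in HSF1-KD HS, from -3.71 for Hspa1a to -0.52 for Ahsa1, as do Phlda1 and Atf3, while Fos, Egr2 and Jun lie at similar or higher values there than in SSBP1-KD HS.

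Immediate-early genes, which code for transcription factors and regulators that are switched on within minutes of a stimulus, were also among the genes with a lower difference in HS than in Cont. Of 38 measured, 19 were lower in SSBP1-KD HS and 7 higher, with a median log2 difference of -0.22, and in Cont 5 were lower and 19 higher. The difference was lower in HS than in Cont for 11 (7 without SCR HS replicate 2 or 3 or SCR Cont replicate 3, and 6 to 17 over all alternatives) and higher for none. Of these 11, 8 were lower in HS, while Myc, Csrnp1 and Sgk1 did not pass in HS and were called only as higher in Cont. Fos fell 2.51-fold (standard error 0.10 on the log2 scale, adjusted p = 5.38e-07) and differed by 0.06 in Cont. Phlda1, a regulator of growth factor signalling, read 12.12, 12.19 and 12.41 in SCR HS and 11.01, 10.96 and 10.99 in SSBP1-KD HS, 2.39-fold lower (adjusted p = 2.95e-07). In Cont its level was raised in SSBP1-KD, at 0.52 (adjusted p = 0.00043), and its difference between HS and Cont, -1.78, was the most negative of the genes named here. Atf3, a stress-induced repressor, read 12.45, 12.59 and 12.69 and 11.68, 11.63 and 11.82 (-0.87, against 0.56 in Cont). Egr2, a zinc finger factor, read 9.14, 9.46 and 9.57 and 8.31, 8.35 and 8.37 (-1.04, against 0.35 in Cont). Jun, which pairs with FOS, differed by -0.74 and 0.08. The SSBP1-KD HS arrays of these 5 genes all lay below the SCR HS arrays and above the SSBP1-KD Cont arrays. The zinc finger factor gene Egr1 was lower in both, at -0.90 in HS and -0.43 in Cont, and Fosl1 was higher in both. Of the 11 genes 7 had a promoter window, and 3 of these (42.9%), Egr2, Jun and Sgk1, held a pair of heat shock element units. Egr2 held it in 1 of its 5 windows. Over the whole list 5 of 30 genes with a window held one (16.7%), close to the 15.1% of all windows. Fos and Atf3 had none, and Phlda1 had no window. The stretches of Egr2 and Jun, named with values above, are:
Egr2, chr10:67537415-67537462 (plus strand): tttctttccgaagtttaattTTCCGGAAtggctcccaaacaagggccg
Jun, chr4:95052323-95052370 (minus strand): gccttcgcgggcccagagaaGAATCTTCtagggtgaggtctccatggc

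The MAP kinase phosphatases and other feedback inhibitors, which are induced by the same signals and switch them off, were mixed. Of 20 measured, 7 were lower and 7 higher (4 higher without any 1 of the SCR HS replicates or without SSBP1-KD HS replicate 3), while in Cont 3 were lower and 12 higher. The difference was lower in HS than in Cont for 8 and higher for none. That count was 4 without replicate 2 or 3 of SCR HS or replicate 2 or 3 of SSBP1-KD HS, and 5 without replicate 1 or 2 of SCR Cont or 2 or 3 of SSBP1-KD Cont, with a range of 3 to 9 over all alternatives. Dusp5, an ERK phosphatase, was lower, at -0.33, in HS (adjusted p = 0.000309) and higher, at 0.36, in Cont (adjusted p = 0.000163). The growth factor signalling inhibitors Spry1 and Spry3 were at -0.91 and -0.56 in HS and -0.47 and -0.58 in Cont. The phosphatase genes Dusp4, Dusp10 and Dusp14 were higher by 0.43, 0.32 and 0.37 in HS. Uspl1, a SUMO-specific protease that belongs to none of the lists, was lower in HS at -0.48 and higher in Cont at 0.56 (adjusted p = 0.000176 and 4.63e-05).

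Genes whose difference was higher in HS than in Cont included replication-dependent histones, the histones made in S phase. H3c15 read 9.81, 9.77 and 9.69 in SCR Cont, 8.57, 9.18 and 9.05 in SSBP1-KD Cont, 8.16, 7.95 and 8.18 in SCR HS and 8.80, 8.83 and 8.68 in SSBP1-KD HS. It was thus lower with SSBP1 knockdown in Cont (-0.82, adjusted p = 0.000841) and higher in HS (0.67, adjusted p = 0.00381), with a difference between them of 1.49 (adjusted p = 0.00424). The linker histone gene H1f2 was higher by 0.89 in HS and 0.35 in Cont, and H2bc14 differed by -0.10 in HS (adjusted p = 0.202) and -0.62 in Cont (adjusted p = 1.43e-06). Of 28 histone genes measured, 8 were higher and 5 lower (3 without replicate 1 or 3 of SCR HS or replicate 1 or 3 of SSBP1-KD HS) in HS, whereas 5 were higher and 17 lower in Cont. The difference was higher in HS for 5 of them, or 3 without SCR HS replicate 2 or 3 or SCR Cont replicate 1, and for 1 to 12 over all alternatives. Histone genes are near-identical within a class, so a probe set may read several of them. Outside the histones, the keratin-associated gene Krtap4-16 read 6.25, 6.02 and 6.12 in SCR HS and 7.25, 7.06 and 7.22 in SSBP1-KD HS (2.07-fold higher, adjusted p = 1.82e-06) and differed by -0.03 in Cont. Ccnf, a cyclin that directs ubiquitin ligation, was higher by 0.64 in HS (adjusted p = 3.02e-07) and differed by 0.10 in Cont (adjusted p = 0.113). Chst12, a chondroitin sulfotransferase, differed by -0.06 in HS (adjusted p = 0.585) and -0.66 in Cont (adjusted p = 1.64e-06).

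Genes of mitochondrial maintenance, the compartment in which SSBP1 is best known, had small differences, with more rises than falls. Of 25 measured genes of mitochondrial DNA replication and transcription, 9 were higher (5 without SCR HS replicate 3, 4 without SSBP1-KD HS replicate 1) and 2 lower, Ssbp1 itself and the methyltransferase gene Tfb1m at -0.23, which no longer passed without replicate 2 of SCR HS or of SSBP1-KD HS (adjusted p = 0.0737 and 0.0573). Lrpprc, which stabilizes mitochondrial mRNA, was higher by 0.49, the polymerase subunit gene Polg2 by 0.32, the transcription factor gene Tfb2m by 0.25 and the topoisomerase gene Top1mt by 0.23. Tfam, which packages the mitochondrial genome, differed by -0.33 (95% confidence interval -0.59 to -0.06, adjusted p = 0.0747), and passed in 4 of the alternatives (adjusted p of 0.00476 to 0.0442 there). No transcript encoded by mitochondrial DNA was measured. Of 77 mitochondrial ribosomal protein genes 32 were higher and 3 lower, with a median log2 difference of 0.16. Mrpl20, Mrps18b and Mrps18a were higher by 0.52, 0.48 and 0.46, and Mrpl23 was lower, at -0.63. Of 80 nuclear-encoded genes of the respiratory chain and ATP synthase 13 were higher and 4 lower (2 without replicate 2 of SCR HS or replicate 3 of SSBP1-KD HS), and the share of rises (16.2%) was near that over all genes. Examples are the complex I subunits Ndufs1 at 0.32 and Ndufa9 at 0.31.

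Of 16 mitochondrial protease genes 8 were higher (5 without SCR HS replicate 3, and 3 to 8 over all alternatives) and 1 lower (0 without replicate 1 or 2 of SCR HS or replicate 2 of SSBP1-KD HS), with the presequence protease gene Pitrm1 at 0.43 and Clpp at 0.28. Of 16 mitochondrial chaperone genes 3 were higher (5 without SSBP1-KD HS replicate 2) and 2 lower (1 without replicate 3 of SCR HS or of SSBP1-KD HS). These shares, 18.8% and 12.5%, were near those over all genes (14.3% and 14.4%). Hspa9, the mitochondrial HSP70, was higher by 0.21, the import receptor gene Tomm20 by 0.24, and Bcs1l, which assembles complex III, was lower, at -0.36. Of 16 genes of the permeability transition pore and the outer membrane, 4 were higher and 2 lower (1 without SCR HS replicate 2 or 3 or any 1 of the SSBP1-KD HS replicates). The adenine nucleotide carrier gene Slc25a5 was higher by 0.37 and the death effector gene Bak1 by 0.47, and the translocator gene Tspo was lower, at -0.35. The porin genes Vdac1, Vdac2 and Vdac3 differed by -0.08, 0.13 and 0.16 (adjusted p = 0.279, 0.0632 and 0.0541), and Vdac2 and Vdac3 passed in some of the alternatives (adjusted p of 0.0158 to 0.0466 and 0.013 to 0.049 there). Ppif, the cyclophilin of the pore, differed by 0.09 (95% confidence interval -0.05 to 0.23).

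The HSF family and the coactivators of HSF1 had small differences, with log2 values from -0.32 to 0.30. Of 23 measured, 5 were higher and 3 lower, near the share over all genes. Smarca4, which encodes the chromatin remodeller BRG1, was higher by 0.25 (adjusted p = 0.000394) and the elongation factor gene Supt6 by 0.30, and the replication protein gene Rpa2 was lower, at -0.26. Rpa1 differed by 0.03 (95% confidence interval -0.08 to 0.14), Hsf2 by 0.04 and Hsf4 by -0.08, none past the threshold.

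The lists of matrix, interferon-stimulated and lipid synthesis genes had more falls than rises in SSBP1-KD, with and without heat shock. Of 44 collagen genes 14 were lower and 2 higher, the basement membrane collagen genes Col4a1 (0.30) and Col4a2 (0.25). The other 28 were not called, and the median log2 difference over the list was -0.01 in HS and 0.05 in Cont. Col1a2 read 12.21, 12.30 and 12.29 in SCR HS and 11.17, 11.14 and 11.24 in SSBP1-KD HS, 2.12-fold lower (adjusted p = 4.04e-08), with a difference of -1.08 in Cont. Col6a1 and Col6a2, which form collagen VI, were 1.88-fold and 2.21-fold lower, and Col1a1 was 1.39-fold lower. Of 34 other matrix genes 19 were lower and 5 higher, among the first Lox, which crosslinks collagen, at -1.19, the gelatinase gene Mmp2 at -1.08, Dcn (decorin) at -1.02, Tnc (tenascin C) at -0.88 and Has2 (hyaluronan synthase) at -0.80. None of these genes had a difference between HS and Cont that passed the test.

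Of the 14 fibroblast markers, all measured, 9 were lower and 2, Vim and S100a4, higher. Of the 9, 6 are also members of the matrix lists (Col1a1, Col1a2, Col3a1, Fn1, Sparc and Dcn), which leaves Pdgfra, Pdgfrb and Prrx1 outside them. The markers' mean log2 signal was 10.98 to 11.04 on the SCR HS arrays and 10.67 to 10.69 on the SSBP1-KD HS arrays. The marker Fap was near the level of the other cell types' markers in both groups, with means of 6.08 and 6.08. In bulk samples fewer cells of a type and less RNA per cell cannot be told apart. Mean signals of the markers of epithelial, endothelial, blood, muscle, neural, fat and pluripotent cells were between 6.46 and 8.07 on these arrays. Single markers could be brighter, and the brightest neural and muscle markers had means of 11.22 and 8.75 in SCR HS. Over all genes 14.3% were higher and 14.4% lower. Of the markers of these other cell types, 3 of 6 neural (Nes, Tubb3 and Gfap) and 1 of 5 endothelial (Kdr) were higher in SSBP1-KD HS. Lower were 2 of 6 epithelial markers (Epcam and Cdh1) and 1 of 4 pluripotency markers (Nanog). Their part in the results was not tested.

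Interferon-stimulated genes, the antiviral effectors that interferon switches on, were lower in 20 of 30 cases and higher in 1, Oasl1 at 0.40, with a median log2 difference of -0.28. In Cont 25 were lower and 1 higher. Mx2, an antiviral GTPase, read 8.29, 8.32 and 8.51 in SCR HS and 7.22, 7.30 and 7.54 in SSBP1-KD HS, 2.03-fold lower (adjusted p = 8.72e-07). Irf7, the transcription factor of the interferon response, was lower at -0.66, Usp18, which limits it, at -0.64, and the peptide transporter gene Tap1 at -0.67. In HSF1-KD HS Irf7 and Usp18 differed from SCR HS by 0.42 and 0.60, the opposite direction (adjusted p = 0.00094 and 5.58e-05), and the knockdowns differed from each other by -1.08 and -1.24 (adjusted p = 1.64e-07 and 6.36e-08). All groups had been infected with adenovirus, but the virus differed with the RNA it carried.

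Sterol and fatty acid synthesis had the largest share of calls of all lists. Of 24 measured genes 19 were lower and 1 higher, the fatty acid synthase gene Fasn at 0.19, with a median log2 difference of -0.43. In Cont 21 were lower and 1 higher, with a median of -0.42. Cyp51, which removes a methyl group from lanosterol, read 11.41, 11.55 and 11.58 in SCR HS and 10.74, 10.62 and 10.58 in SSBP1-KD HS, 1.82-fold lower (adjusted p = 2.64e-07), and the last enzyme of one route to cholesterol, encoded by Dhcr7, was 1.69-fold lower (adjusted p = 5.08e-07). Hmgcs1, an early enzyme of the pathway, was lower at -0.64, Insig1, the sensor that holds back SREBP, at -0.64, and the desaturase and elongase genes Scd2 and Elovl6 at -0.52 and -0.53. In HSF1-KD HS Cyp51 differed from SCR HS by 0.12 and Dhcr7 by 0.40, and both stood lower in SSBP1-KD HS than in HSF1-KD HS (-0.99 and -1.16, adjusted p = 4.97e-08 and 6.56e-09).

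Targets of ATF4, the factor of the integrated stress response to amino acid shortage and mitochondrial stress, were lower as well. Of 31 measured, 19 were lower (10 to 19 over all alternatives) and 2 higher (1 without replicate 1 of SCR HS or replicate 1 or 3 of SSBP1-KD HS), with a median of -0.21, and 9 and 5 in Cont. Pck2, a mitochondrial enzyme of gluconeogenesis, was lower at -0.76, the lipoprotein receptor gene Vldlr at -0.66, the mTOR inhibitor gene Ddit4 at -0.64, the transcription factor gene Cebpb at -0.51 and Chac1, which degrades glutathione, at -0.46. The aminoacyl-tRNA synthetases, several of which are also ATF4 targets, were higher in 7 of 17 and lower in 2 (1 without replicate 2 or 3 of SCR HS or replicate 2 or 3 of SSBP1-KD HS), with Rars at 0.51, Hars at 0.45 and Qars at -0.32. In the list of ER chaperones and unfolded-protein response targets, 11 of 31 were lower and 1 higher, with the factor gene Xbp1 at -0.34 and Hsp90b1, the HSP90 of the ER, at -0.26. Of 18 ubiquitin and autophagy adaptors 10 were lower and 3 higher (1 without replicate 2 or 3 of SCR HS or replicate 1 or 3 of SSBP1-KD HS), including Calcoco1 at -0.57 and Wipi1 at -0.50, and of 28 lysosomal genes 11 were lower and 6 higher. Of 27 glycolysis and hypoxia targets 11 were lower and 4 higher (2 without replicate 3 of SCR HS or replicate 1 or 3 of SSBP1-KD HS), with Pdk1, which blocks pyruvate oxidation, at -0.87 and the glucose transporter gene Slc2a3 at -0.51.

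The lists of proteasome subunits, NRF2 targets and p53 targets had more rises than falls. Of 50 proteasome subunits 28 were higher (13 to 30 over all alternatives) and 1 lower (2 without SCR HS replicate 2), with a median log2 difference of 0.21, and 22 and 3 in Cont. The regulatory subunit genes Psme3 and Psmd1 were higher by 0.49 and 0.42, and the interferon-induced Psme1 was lower, at -0.36. Of 20 targets of NRF2, the factor of the oxidative stress response, and metal-responsive genes 11 were higher and 3 lower. Gclc and Gclm, the subunits of the enzyme that makes the glutathione precursor, were higher by 0.71 and 0.51, the sulfiredoxin gene Srxn1 by 0.48 and the heme oxygenase gene Hmox1 by 0.45, while the glutathione transferase gene Gsta4 was lower, at -0.61. Of 18 p53 targets 11 were higher and 3 lower, with Aen, a nuclease of apoptosis, at 0.52, Ccng1 (cyclin G1) at 0.46, and on the lower side the stress sensor gene Sesn1 at -0.80 and the death receptor gene Fas at -0.52. All genes named in these 3 lists were called the same way in Cont, with Gclc at 0.62, Psme3 at 0.40 and Sesn1 at -0.81.

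Of 22 YAP and SRF targets of the cytoskeleton 10 were higher and 3 lower. The smooth muscle genes Acta2, Myl9 and Tagln were higher by 0.83, 0.85 and 0.76, whereas the YAP targets Amotl2 and Ccn1 were lower at -0.67 and -0.50. Acta2 read 12.24, 12.15 and 12.16 in SCR HS and 13.02, 13.06 and 12.95 in SSBP1-KD HS, so that the groups lay apart. Inflammatory cytokines were mixed, with 7 of 25 lower and 7 higher. Cxcl5, a neutrophil attractant, was 2.71-fold lower (adjusted p = 9.19e-08) and Ptgs2, the inducible cyclooxygenase, 1.94-fold higher (adjusted p = 3.99e-07). Of 24 Krüppel-like and circadian factors 7 were higher and 5 lower (8 without SCR HS replicate 1), with the clock gene Per1 at 0.61. Of 44 genes of mitosis and DNA replication 10 were higher (6 without replicate 3 of SCR HS or replicate 1 of SSBP1-KD HS) and 10 lower, with the G1 cyclin genes Ccne1 and Ccne2 higher by 0.87 and 0.50. Of 27 genes of the TCA cycle and fatty acid oxidation 9 were higher and 8 lower (5 without SCR HS replicate 2 or 3, 4 without SSBP1-KD HS replicate 2 or 3). Cytosolic ribosomal proteins were the least changed list, with 5 of 61 lower and 1, Rpl12 at 0.47, higher, a smaller share than over all genes. The lower count was 1 without SCR HS replicate 3, 3 without SSBP1-KD HS replicate 1 and 2 without SSBP1-KD HS replicate 2 or 3, and the higher count 3 and 2 without SCR HS replicate 1 and 2.

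**Figure D5:**
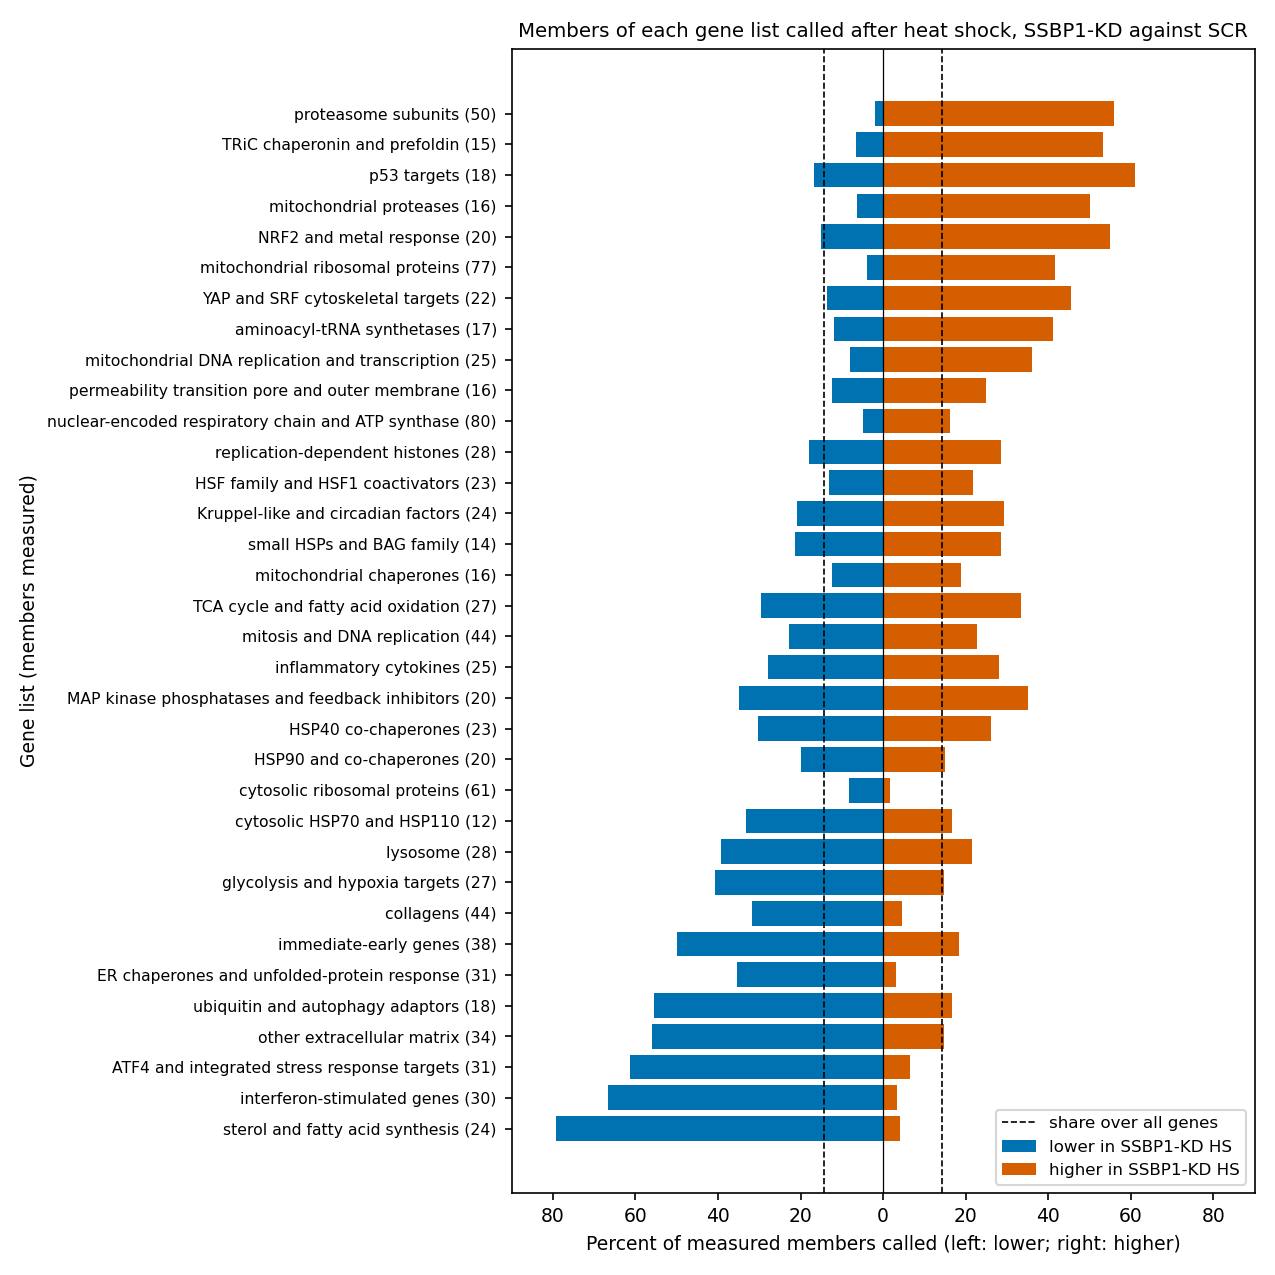
Percent of the measured members of each gene list called lower (blue, to the left) or higher (orange, to the right) in SSBP1-KD HS against SCR HS, with the number of members measured in parentheses; dashed lines mark the shares over all genes, 14.4% and 14.3%. Sterol and fatty acid synthesis reaches furthest to the lower side (79.2% of 24) and p53 targets to the higher side (61.1% of 18).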

How the data were processed

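RNA (200 ng) was hybridized to Affymetrix Mouse Gene ST arrays, 3 per group. The authors deposited log2 signals, which the submitters' processing notes describe as RMA (background correction, quantile normalization and probe summary) in Partek 6.5. Depth has no counterpart on arrays, and the number of arrays limits the precision. Of 35557 probe sets 21789 carried 1 gene symbol, 1621 several and 12147 none; 21701 of the first matched current RefSeq symbols (GRCm38.p6). Each of 19936 symbols was read from its brightest single-symbol probe set.

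All 18 arrays entered a fit of 6 group means in limma 3.58.1 (R 4.3.3; lmFit, eBayes; 12 residual and 2.36 prior degrees of freedom), and p-values were adjusted by Benjamini-Hochberg over all probe sets (threshold 0.05). The script was tested on simulated data. The members and gene lists were chosen with earlier results of these data known. Named were Ssbp1 and chaperone, pore and HSF1 cofactor genes. So were the 20 largest falls and rises with gene-like names and with arrays that did not overlap between the groups. Up to 8 called members of each list by size and the 10 largest falls and rises of the difference between HS and Cont were named as well. Ahsa1, Col4a1, Col4a2, Csrnp1, Fap, Fasn, Myc, Oasl1 and Sgk1 were named after their values were seen. Alternatives changed the normalization, probe sets, arrays, replicate block, variance prior, array weights, test or fold threshold. The promoter motif of 2 units was added after the data were seen. Figures were drawn with matplotlib 3.10.9.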

Additional observations from a re-analysis of the deposited data

Results flagged for a closer look

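For 27 of the genes given with values, the difference of SSBP1-KD from SCR itself differed between heat-shocked and control cells by limma's test of that difference over all probe sets. Among chaperones and their partners the difference between HS and Cont was -1.22 for Dnajb1, -1.14 for Bag3, -1.12 for Hsph1, -1.10 for Dnajb4, -0.90 for Dnaja4, -0.90 for Hspa1a, -0.83 for Hspb1, -0.81 for Hspb8, -0.70 for Hspa4l, -0.67 for Hspd1, -0.67 for Dnaja1, -0.51 for Hsp90aa1, -0.42 for Fkbp4 and -0.40 for Ahsa1, all on the log2 scale, with adjusted p from 4.21e-05 to 0.0202. Among immediate-early genes and signalling regulators it was -1.78 for Phlda1, -1.43 for Atf3, -1.39 for Egr2, -1.39 for Fos, -0.82 for Jun and -0.69 for Dusp5, with adjusted p from 2.22e-05 to 0.000458, and for the SUMO protease gene Uspl1 it was -1.04 (adjusted p = 0.000182). Positive values were found for H3c15 (1.49), Krtap4-16 (1.08), Chst12 (0.60), H1f2 (0.54), Ccnf (0.54) and H2bc14 (0.52), with adjusted p from 0.000809 to 0.0123.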

How the results depend on the processing

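The counts of genes lower or higher in SSBP1-KD HS, and of those called the same way with and without heat shock, stayed within 1.5 times of their values under all alternatives run, with 1955 lower and 1965 higher by the methods' Student test after adjustment. At other fold thresholds the counts were 1408 lower and 1120 higher at the less strict one and 89 and 31 at 2-fold. The counts of genes with a lower or a higher difference in HS than in Cont depended most on the setting. They were 127 and 126 with only the brighter probe sets (above the median), 29 and 5 with the SCR and SSBP1-KD arrays only, 94 and 75 with a trended robust prior, 181 and 154 with array weights, and the second was 86 by ordinary analysis of variance. With 1 array left out they ranged from 33 to 83 and from 10 to 38. The cause was not tested.

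The replicate numbers did not pair the arrays, since same-numbered SCR HS and SSBP1-KD HS arrays deviated with correlations of -0.015, -0.0396 and -0.0583. With the replicate number as a block, 2746 genes were lower and 2772 higher, 425 and 204 at 1.5-fold, 4138 were called the same way with and without heat shock, and 49 and 18 had a lower or higher difference in HS than in Cont. No sample was matched best by its own number.

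Of 1190 counts of list members called lower or higher in HS, recomputed under the alternatives, 123 moved by over 1.5 times, 57 of them with 1 array left out. Of the other 66, 29 were by the methods' Student test, 10 with the heat-shocked SCR and SSBP1-KD arrays alone and 6 each with array weights and with the brighter probe sets. The range was 2 to 10 for higher TRiC and prefoldin genes, 3 to 8 for higher mitochondrial proteases and 2 to 7 for higher HSP90 and co-chaperone genes. It was 10 to 19 for lower ATF4 targets and 13 to 30 for higher proteasome subunits.

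Of the 164 genes given with values, 0 reversed under any alternative. Cct3, Chac1, Clpp, Hspa4l, Hspb8, Rpa2 and Slc25a5 did not pass by the methods' Student test, and Tfb1m did not pass by it or with the heat-shocked SCR and SSBP1-KD arrays alone. Hspe1, Tfam, Vdac2 and Vdac3, which did not pass, did so under 1, 4, 6 and 9 of the alternatives. H1f2 and H2bc14 lost the difference between HS and Cont with the SCR and SSBP1-KD arrays only (adjusted p = 0.0633 and 0.0511). Probe sets near the dim end of the scale limit what can be read for genes such as Lce1g and Krtap4-16.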
